A study of Homo sapiens with 4 samples.

Results

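The 10 genes described here, RGS2, RGS3, RGS4, RGS5, RGS7, RGS10, RGS12, RGS14, RGS16 and RGS19, encode regulators of G protein signalling. They were taken by gene symbol from a deposited table of 18375 genes, and all 10 were measured. They are 10 of the 16 genes with a numbered RGS symbol in that table. The genes were picked with their values in these libraries known, so their levels and fold changes are given as a description and carry no p-value. Messenger RNA was sequenced from RD cells, a human line of fusion-negative rhabdomyosarcoma, a tumour of the skeletal muscle lineage. There were 2 libraries of untreated parental cells and 2 of cells selected for resistance to vincristine, a drug that blocks microtubule assembly, and the labels give both groups as wild type. Selection began at 1 to 1.5 nM vincristine, a dose that killed 80 to 90% of cells, and proceeded in steps of 10 to 20% for 9 to 12 months until the half-maximal inhibitory concentration had risen at least 100-fold. The sources used here do not say whether the resistant libraries come from 1 selected population or several, or whether drug was present at harvest.

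Cell-surface receptors activate heterotrimeric G proteins by loading the alpha subunit with GTP. RGS proteins bind that active alpha subunit through a shared RGS domain and speed up the hydrolysis of GTP, which ends the signal. The family is divided by sequence into subfamilies. R4 proteins, here RGS2, RGS3, RGS4, RGS5 and RGS16, are mostly small and built around the RGS domain. R7 proteins such as RGS7 need the beta subunit GNB5 for stability, R12 proteins (RGS10, RGS12, RGS14) include large scaffolds with further domains, and RZ proteins such as RGS19 carry a string of cysteines. RGS4 and RGS7 are known from neurons, RGS5 from pericytes, and RGS16 as a gene that responds to stimuli in many cells.

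The libraries held 58861281 to 67690557 recovered reads in the genes of the table. The labelled cell type was checked against 12 markers of muscle and rhabdomyosarcoma, of which 11 were in the table. MYOD1, the myogenic master regulator, lay between 15213 and 16936 normalized counts in the 4 libraries, and MYOG, the differentiation factor myogenin, between 4568 and 7489. Of the 11 muscle markers, 10 were called higher in resistant cells and none lower, beside 32.7% and 34.2% of all tested genes. PAX3, among the 10, rose by only 0.14 on the log2 scale (SE 0.06). The summed level of the 11 was 103468 to 103919 normalized counts in parental and 179743 to 184862 in resistant libraries. The part of this shift in the results below was not tested. Of 8 endothelial markers 6, among them PECAM1, CDH5 and VWF, were not in the table, while TEK was higher and CLDN5 lower. Nothing in the labels says that replicates were separate cultures, so each p-value refers to the spread of these 4 libraries alone, and that spread may be technical. In bulk RNA, more cells with a transcript and more transcript per cell cannot be told apart.

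The 4 members with higher levels in resistant cells all lie on chromosome 1, as does RGS2, which was lower. Upstream sequence is shown for RGS7 and RGS4, which had the largest differences, and for RGS16, the most abundant member. Each comes from RefSeq (GRCh38.p14), is the longest stretch of the 250 bases before the gene's first annotated start site that lies outside every exon of GENCODE 29, and reads 5′ to 3′ on the gene's strand. Capitals mark matches on either strand to 5 motifs. TATAAA is the TATA box. The letters CCAAT give the box of that name. The GC box is GGGCGG. One side of the cAMP response element is TGACG, and CACGTG is an E box that MYC can bind. The capitals of different motifs do not run into each other in the printed stretches. RGS7 is chr1:241357231-241357480 (minus strand), RGS4 is chr1:163068621-163068774 (plus strand) and RGS16 is chr1:182604409-182604639 (minus strand).
RGS7: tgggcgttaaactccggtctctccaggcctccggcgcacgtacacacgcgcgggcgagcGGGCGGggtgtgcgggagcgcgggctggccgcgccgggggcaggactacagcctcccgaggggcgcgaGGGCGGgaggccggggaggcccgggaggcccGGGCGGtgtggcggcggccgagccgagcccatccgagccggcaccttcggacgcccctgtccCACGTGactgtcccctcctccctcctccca
RGS4: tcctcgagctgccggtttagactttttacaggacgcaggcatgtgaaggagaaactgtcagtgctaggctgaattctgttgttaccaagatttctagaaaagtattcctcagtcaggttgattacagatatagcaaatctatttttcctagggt
RGS16: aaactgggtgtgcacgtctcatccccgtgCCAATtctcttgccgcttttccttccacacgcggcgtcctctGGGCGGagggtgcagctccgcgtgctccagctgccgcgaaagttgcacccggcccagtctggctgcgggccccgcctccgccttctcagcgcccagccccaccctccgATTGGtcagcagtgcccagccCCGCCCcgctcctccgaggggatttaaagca

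The full 250-base window of RGS7 was 77.6% G and C and held 34 CpG pairs, against medians of 57.6% and 10 over the first windows of 27305 genes. In RGS4 the window had 42.8% G and C and 5 CpG pairs, and none of the 5 motifs was found in it. Both RGS5 and RGS16 had 22 CpG pairs. The E box was found in RGS7 alone among the 10 members, and 6.46% of all first windows hold it. The CCAAT box was found in RGS16 and RGS2, against 33.0% of all windows, and the GC box in 7 members, against 42.2%. The TGACG motif was found in RGS2 only, and the TATA box in none, against 21.6% and 11.2% of all windows. Several members have more than 1 annotated start (RGS7 and RGS4 have 4 each), and which start the cells use was not measured.

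RGS7, the R7 member, had the largest difference. It had 17.4 and 16.9 normalized counts in the parental libraries and 697 and 747 in the resistant libraries. The parental level thus rested on 35 reads over both libraries and the resistant level on 1427, and the groups were far apart. The log2 fold change was 5.32 (SE 0.16) and the read ratio 42.2, with an exact 95% binomial counting interval of 30.2 to 60.8. Among 18330 tested genes ordered by log2 fold change, RGS7 was number 12. An opposite-strand transcript, AL365184.1, covers 9.32% of its exonic bases, and no strand setting is stated for the counting.

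RGS4, an R4 protein that acts on Gi and Gq alpha subunits, had 200.1 and 191 normalized counts in the parental and 4534 and 4495 in the resistant libraries. Its groups were far apart and its replicates close, with SDs of 6.54 and 27.7 (n = 2 in each group here and below). The log2 fold change was 4.52 (SE 0.06), the read ratio 23.1 (counting interval 20.9 to 25.6), and RGS4 was number 48 in the same order of genes. Of 10 listed neuronal markers 6 were in the table, and all 6 were called, beside 66.9% of all tested genes. SNAP25 (2.15) and MAP2 (0.96) were higher and SYP, STMN2, SYT1 and TUBB3 lower. The summed level of that list was 14738 to 14904 in parental and 22938 to 23428 in resistant libraries. Most of that sum was MAP2, at 9405 and 9375 in parental and 18650 and 17788 in resistant libraries. The part of the list in the values of RGS4 and RGS7 was not tested.

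RGS5, the R4 protein used as a pericyte marker, had 75.4 and 102 normalized counts in the parental and 823 and 799 in the resistant libraries. The parental replicates differed by more than those of the other members, relative to their mean (88.9 ± 19.1), and the groups did not overlap. The log2 fold change was 3.19 (SE 0.12) and the read ratio 9.13, with a counting interval of 7.83 to 10.7. Another gene on the same strand, AL592435.1, shares 7.83% of the exonic bases of RGS5 and was itself higher (0.82). Of 10 pericyte and smooth muscle markers, 6 were higher and 3 lower in resistant cells, beside 32.7% and 34.2% of all tested genes. The receptor gene PDGFRB went from 474 ± 18.4 to 1062 ± 6.36 and the contractile actin gene ACTA2 from 21.0 ± 5.82 to 104 ± 7.76, while the pericyte proteoglycan gene CSPG4 went from 5511 ± 143 to 1900 ± 34.7. The summed level of that list was 36698 to 37459 in parental and 39456 to 41858 in resistant libraries. Most of that sum was NOTCH3, at 20408 and 19861 in parental and 29929 and 31917 in resistant libraries. The part of the list in the RGS5 value was not tested.

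RGS16, an R4 protein that acts on Gi and Gq alpha subunits, was the most abundant member in all 4 libraries. It had 11386 and 11555 normalized counts in the parental and 18817 and 18706 in the resistant libraries. The difference was small as a fold but large beside the replicate spread (11471 ± 119 against 18762 ± 79.2), at a log2 fold change of 0.71 (SE 0.03).

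RGS2, an R4 protein known for its preference for Gq, had 3294 and 3143 normalized counts in the parental and 2108 and 2208 in the resistant libraries. Both resistant values lay below both parental values, and the log2 fold change was -0.58 (SE 0.04). RGS3, an R4 protein with long and short isoforms, had 7696 and 7853 against 6309 and 6536, a log2 fold change of -0.28 (SE 0.03). For RGS3, too, the groups did not overlap.

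RGS19, the RZ member, which acts on Gi alpha subunits, was the member with the lowest fold change. It had 2307 and 2385 normalized counts in the parental and 1301 and 1452 in the resistant libraries, a log2 fold change of -0.77 (SE 0.05). Of the R12 members, the scaffold RGS12 had 2363 and 2434 against 1948 and 1971 (-0.29, SE 0.04). RGS14, a scaffold that also binds inactive Gi alpha subunits and RAS family GTPases, had 299.7 and 297 against 209.9 and 230.04 (-0.44, SE 0.11). RGS14 rested on 609 parental and 435 resistant reads, the resistant total being the lowest of any member, and its SE was the largest among the lower members.

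RGS10, a small R12 protein known from microglia and other leukocytes, was the member with no clear difference. It had 1353 and 1357 normalized counts in the parental and 1433 and 1398 in the resistant libraries. The groups did not overlap, yet the log2 fold change was 0.06 (SE 0.05), and the counting interval of the read ratio, 0.990 to 1.10, includes 1. Leukocyte markers were few in these cells: CD3E, LCP1 and PTPRC were not in the table. The summed level of the 4 measured was 995 to 1052 in parental and 552 to 593 in resistant libraries. Most of that sum was CORO1A, at 936 and 986 in parental and 482 and 514 in resistant libraries. CD68 was also lower, LYZ was higher (1.27, SE 0.43) and CD14 did not pass.

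**Figure D1:**
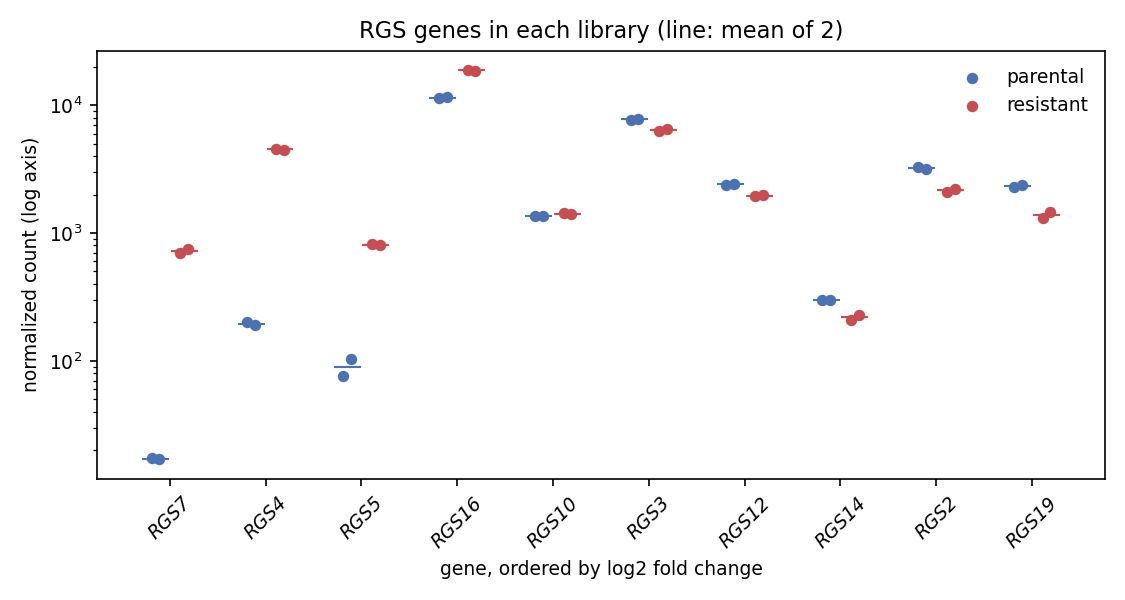
Normalized counts of the 10 RGS genes in each library, on a log axis, with points for the 2 parental and 2 resistant libraries and a line at each mean. RGS7, RGS4 and RGS5 stand far higher in resistant libraries, RGS16 is higher, RGS10 is nearly level and the other 5 are lower.

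In all, the fit over all genes called 4 members higher, 5 lower and 1 neither, so 9 of 10 were called, against 66.9% of all tested genes (32.7% higher and 34.2% lower). Groups did not overlap for 10 of 10 members and for 82.1% of all genes. With a change above 1.2-fold required, 6 members were called, beside 6794 of the 18330 tested genes. A dispersion of 0.01 in edgeR gave 7 members, beside 7943 of all tested genes. Since the genes were picked with these values known, nothing is read from the counts. The median log2 fold change was -0.11 over the members and 0.00 over all genes, and 3 members exceeded a log2 fold change of 3, which 1.48% of genes did. The log2 fold changes in the authors' deposited table differed from those given here by at most 0.08, for RGS7.

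Compared per kilobase of exon, the summed level of the 10 members was 9349 and 9406 normalized counts per kilobase in parental libraries and 12528 and 12608 in resistant libraries. RGS16 made up 50.4 ± 0.31% of that sum in parental cells and 61.5 ± 0.54% in resistant cells. The share of RGS4 went from 0.431 ± 0.016% to 7.43 ± 0.079%, and that of RGS7 from 0.0710 ± 0.0018% to 2.23 ± 0.10%. RGS2 went from 16.4 ± 0.61% to 8.19 ± 0.23%, RGS19 from 12.3 ± 0.24% to 5.40 ± 0.39%, and RGS10 from 11.5 ± 0.023% to 9.00 ± 0.19%. By level per kilobase the parental order was RGS16, RGS2, RGS19, RGS10, RGS3, RGS12, RGS14, RGS4, RGS5 and RGS7. The resistant order was RGS16, RGS10, RGS2, RGS4, RGS19, RGS3, RGS7, RGS12, RGS5 and RGS14. No 2 neighbours in either order had overlapping libraries. The lengths are unions of all annotated exons, 13793 bases for RGS3. With the longest transcript instead RGS3 moved to place 3 in parental and place 4 in resistant cells. RGS19 moved to place 5 in parental and place 6 in resistant cells. In resistant cells RGS4 also moved to place 5, RGS12 to place 7 and RGS7 to place 8. The share of RGS3 then came to 13.6% and 9.13%, in place of 6.01% and 3.70%, and that of RGS16 to 37.8% and 50.5%.

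**Figure D2:**
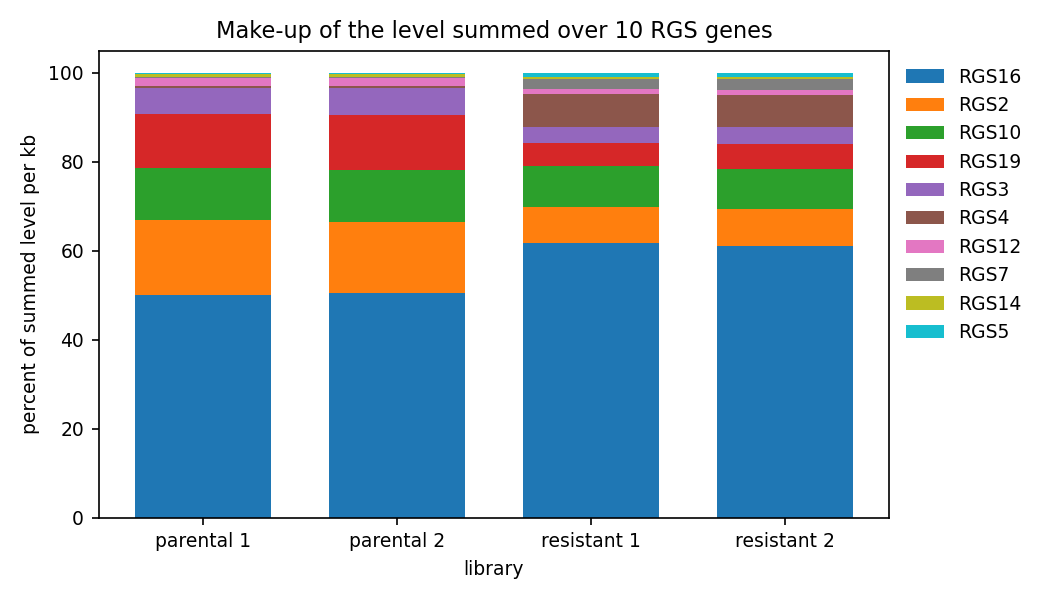
Percent of the level per kilobase of exon, summed over the 10 RGS genes, that each gene contributes in each of the 4 libraries. RGS16 is the largest part in every library, at 50.4% on average in parental and 61.5% in resistant cells, and the RGS4 band is much thicker in resistant libraries.

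The 6 other measured RGS genes are not members and were tested in the fit (limma, Benjamini-Hochberg adjustment over all genes). Like all gene lists here, theirs was chosen with earlier results of these data known. With the distant relatives AXIN1, AXIN2, SNX13, SNX14 and AKAP10, which carry an RGS-like domain, 10 of 11 were called, 4 higher and 6 lower, a share of 90.9% beside 66.9% of all genes. The median log2 fold change of these 11 was -0.35. With a change above 1.2-fold required 2 were called higher and 5 lower, beside 3380 and 3414 of 18330 tested genes. RGS6, RGS13, RGS18, RGS21 and RGS22 were not in the deposited table and so were not measured.

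Both RZ genes beside RGS19 fell. RGS17, which acts on Gi and Gz alpha subunits, had 5186 and 5532 normalized counts in parental and 2872 and 2699 in resistant cells, and the log2 fold change was -0.94 (SE 0.04, limma adjusted p = 5.82e-17). RGS20 had 442 and 426 against 121 and 104, a log2 fold change of -1.94 (SE 0.12, limma adjusted p = 4.86e-14). All 3 measured RZ genes, RGS19 having been picked with its values known, were thus lower in both resistant libraries than in either parental library. Groups did not overlap for 82.1% of all genes.

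The other measured R7 genes, RGS11 and RGS9, fell. RGS11 had 383 and 397 normalized counts in the parental and 128 and 124 in the resistant libraries, a log2 fold change of -1.62 (SE 0.11, limma adjusted p = 1.01e-12). RGS9, known from retina and striatum, had few counts in every library, at 39.6 and 37.8 against 9.74 and 10.5 (-1.84, SE 0.34, limma adjusted p = 3.52e-05). Per kilobase of exon, RGS7 was below RGS11 in parental cells (mean levels 6.66 and 81.2) and above it in resistant cells (280.4 and 26.2).

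The R4 genes RGS8 and RGS1 rose. RGS8, known from Purkinje neurons, had 56.1 and 79.5 normalized counts against 302 and 266, a log2 fold change of 2.07 (SE 0.16, limma adjusted p = 7.47e-12). RGS1, known from lymphocytes, had 25.1 and 37.8 against 62.8 and 61.1 (0.98, SE 0.25, limma adjusted p = 0.00129). Of 7 measured R4 genes, 5 were higher and 2, RGS2 and RGS3, were lower, beside 32.7% and 34.2% of all tested genes. The members among these R4 genes were picked with their values known, so nothing is read from this count. Among the distant relatives, both AXIN2, a WNT target (-1.18, SE 0.09), and AXIN1 (-0.35, SE 0.04) fell, although AXIN1 did not pass against a change of 1.2-fold (limma treat adjusted p = 0.0523). The sorting nexin gene SNX13 (0.15, SE 0.04) and the anchoring protein gene AKAP10 (0.19, SE 0.06) rose, and neither passed against a change of 1.2-fold (limma treat). Without parental replicate 2 the call of AKAP10 was lost (0.17, limma adjusted p = 0.0765). SNX14 did not pass (0.08, SE 0.04), but it was called with quantile normalization (0.12, limma adjusted p = 0.0142) and when resistant replicate 2 was left out (limma adjusted p = 0.0379).

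**Figure D3:**
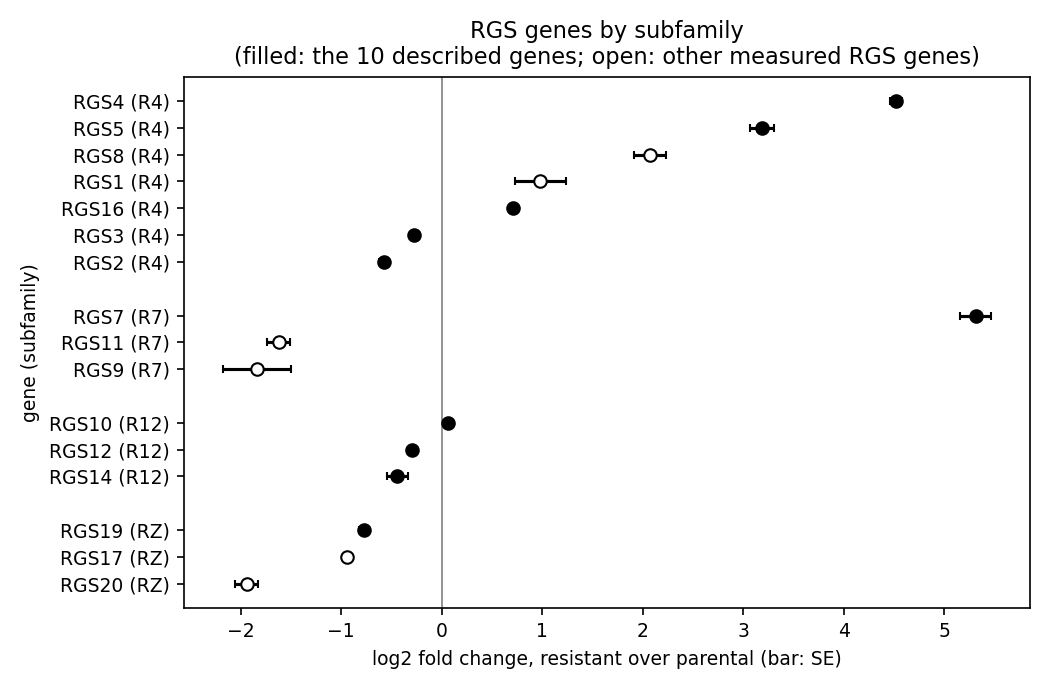
Log2 fold change of resistant over parental cells with its standard error for the 16 measured RGS genes, grouped by subfamily, with filled points for the 10 described genes and open points for the 6 others. The R4 group spans both directions, RGS7 stands apart from RGS9 and RGS11, and the 3 RZ genes are all lower.

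The measured partners of RGS7 did not rise with it. Of 5 genes listed as partners of the R7 subfamily, 3 were in the table, and RGS7BP and GPR179 were not. All 3 fell, beside 34.2% called lower among all genes. GNB5, the beta subunit that R7 proteins need, had 1161 and 1110 normalized counts in parental and 932 and 961 in resistant cells (-0.26, SE 0.06, limma adjusted p = 0.000316). GPR158, an orphan receptor that recruits RGS7 to the membrane, had 828 and 840 against 539 and 582 (-0.57, SE 0.07, limma adjusted p = 5.60e-08). RGS9BP, an R7 membrane anchor, had 34.8 and 43.7 against 9.74 and 26.7 (-1.21, SE 0.37, limma adjusted p = 0.00497). Without resistant replicate 1 the value of RGS9BP was -0.53 and the call was lost (limma adjusted p = 0.177), and DESeq2 did not call it either (adjusted p = 0.0751). The call of GNB5 was lost against a change of 1.2-fold and with a dispersion of 0.01.

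Of 13 measured G alpha subunits, on which RGS proteins act, 8 fell, 1 rose and 4 did not pass. The share called, 69.2%, is near the 66.9% of all genes, and the median log2 fold change was -0.31. GNAI1, a Gi alpha subunit, had 12146 and 12394 normalized counts in parental and 3924 and 3972 in resistant cells, at a log2 fold change of -1.64 (SE 0.03). GNA13 (-1.46, SE 0.04) and GNA12 (-0.59, SE 0.03), subunits of a class of their own beside Gi and Gq, fell, as did the Gq relative GNA11 (-0.43, SE 0.04). Of 12 beta and gamma subunits, 6 fell and 1 rose, a share of 58.3% called, below that of all genes, with a median of -0.13. GNG11 (-1.39, SE 0.04), GNB2 (-0.64, SE 0.03), GNB1 (-0.42, SE 0.03) and GNG2 (-0.46, SE 0.03) fell. With a change above 1.2-fold required, 5 G alpha genes were called in place of 9, of which 4 were lower. With a dispersion of 0.01 in edgeR 5 were lower. Of 18330 tested genes, these settings called 3414 and 3880 lower.

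Of 13 other proteins that tune G protein signals, 5 rose and 7 fell (92.3% called, median -0.27). With a change above 1.2-fold required, 2 were called higher and 6 lower, and with a dispersion of 0.01 in edgeR 3 and 6. RIC8A, a chaperone and exchange factor of alpha subunits, fell by 0.47 on the log2 scale (SE 0.03), the receptor kinase gene GRK2 by 0.50 (SE 0.03) and GPSM2, which binds inactive Gi alpha at the mitotic cortex, by 0.59 (SE 0.04). GRK3, a kinase related to GRK2, rose by 0.49 (SE 0.05).

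Of 17 measured effectors, 6 rose and 9 fell (median -0.07), and 88.2% were called, beside 66.9% of all tested genes. With a change above 1.2-fold required 3 were called higher and 5 lower, beside 3380 and 3414 of 18330 tested genes. PLCB4, a Gq-activated phospholipase C, had 5556 and 5653 normalized counts in parental and 898 and 842 in resistant cells (-2.69, SE 0.05). KCNJ3, a potassium channel subunit opened by G beta gamma, had 805 and 873 against 3953 and 3938 (2.23, SE 0.05). ARHGEF1, a guanine nucleotide exchange factor with its own RGS-like domain that binds GNA13, fell (-0.80, SE 0.03), as did PIK3CG, a kinase activated by G beta gamma (-2.26, SE 0.16).

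Among 71 listed receptors of the Gi and Gq classes, 39 were in the table, of which 18 rose and 13 fell (median 0.31). The share called was 79.5%, beside 66.9% of all tested genes. DESeq2 called 21 of them, 13 higher and 8 lower, and leaving out 1 library gave 22 (without parental replicate 2) to 29 called. The chemokine receptor gene CXCR4 had 77.3 and 119 normalized counts in parental and 6622 and 6363 in resistant cells (6.06, SE 0.11). S1PR3, a receptor for sphingosine 1-phosphate, had 111 and 103 against 2167 and 2151 (4.32, SE 0.08), and F2RL2, a thrombin receptor gene, had 143 and 145 against 1767 and 1545 (3.51, SE 0.08). HTR2B, a serotonin receptor gene coupled to Gq, had 4627 and 4824 against 1223 and 1177 (-1.98, SE 0.04).

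RGS4, RGS5 and RGS16 proteins are destroyed by the N-degron pathway, in which methionine is removed, the exposed cysteine oxidised and arginine added before ubiquitylation. Of the 6 listed genes of this pathway 4 rose and none fell (66.7% called, median 0.23), a share at the background, and 1 gene was called lower without resistant replicate 1. ATE1, the arginine transferase, had 2310 and 2305 normalized counts in parental and 4614 and 4560 in resistant cells (0.99, SE 0.04). ADO, the oxidase of N-terminal cysteine, rose by 0.53 (SE 0.04) and the methionine aminopeptidase gene METAP2 by 0.37 (SE 0.03). UBR1, a ubiquitin ligase gene, had a log2 fold change of 0.10 (SE 0.04, limma adjusted p = 0.0345), and the call was lost under 7 of 13 alternatives, among them the replicate block (limma adjusted p = 0.0534) and leaving out parental replicate 1, parental replicate 2 or resistant replicate 1, with limma adjusted p-values of 0.187, 0.183 and 0.124.

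A list of genes of the response to cAMP, which Gi signals lower, gave no shared direction. It joins genes that respond to cAMP with factors that carry the signal, such as CREB1, ATF1 and the CRTC genes. Of 16 measured, 5 rose and 8 fell (median -0.09), and 81.2% were called, beside 66.9% of all tested genes. With a change above 1.2-fold required, 3 were called higher and 5 lower, beside 3380 and 3414 of 18330 tested genes. CREB1, ATF1 and CRTC1 did not pass and CRTC2 and CRTC3 fell, so the counts are not those of responding genes alone. PDE4B, a cAMP phosphodiesterase (-0.93, SE 0.05), NR4A2, an immediate early nuclear receptor (-2.30, SE 0.13), CREM, a cAMP response modulator (-0.69, SE 0.05), and BDNF, a neurotrophin (-0.46, SE 0.04), fell. They are named for the smallest adjusted p-values of the list. The 5 that rose were PDE4D (0.46, SE 0.05), NR4A3 (0.79, SE 0.20), PRKAR2B (0.72, SE 0.11), PER1 (0.31, SE 0.05) and DUSP1 (0.16, SE 0.05).

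**Figure D4:**
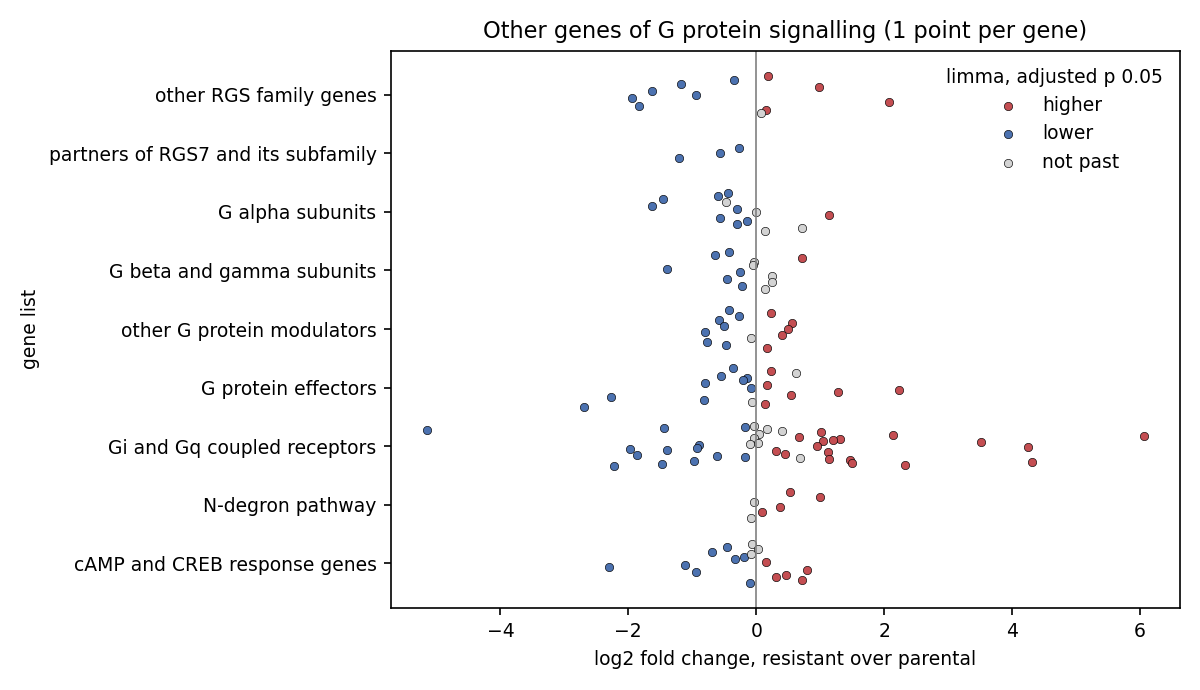
Log2 fold change of resistant over parental cells for each measured gene of 9 lists of G protein signalling, coloured by its call in the limma fit. Receptors reach from -5.15 (AGTR1) to 6.06 (CXCR4), and most other lists spread to both sides.

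Of the 16 measured RGS genes 7 lie on chromosome 1, and 5 of these are members. RGS4 (163068775 to 163076802) and RGS5 (163111121 to 163321791) are neighbours 34.3 kb apart in GRCh38 (GENCODE 29), on opposite strands. RGS16 (182598623 to 182604408) lies 37.4 kb from RGS8, and RGS2 (192809039 to 192812283) lies 229 kb from RGS1. RGS7 spans 240775515 to 241357230. The neighbours RGS4 and RGS5 were both higher, as were RGS16 and RGS8, while RGS2 was lower and RGS1 higher. The other members lie alone, RGS3 on chromosome 9 (113444731 to 113597743), RGS10 on chromosome 10 (119499828 to 119542708), RGS12 on chromosome 4 (3293028 to 3439913), RGS14 on chromosome 5 (177357837 to 177372601) and RGS19 on chromosome 20 (64073181 to 64079988).

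Genes within 1 Mb of each member did not always follow it. Over all tested genes, 32.7% were called higher and 34.2% lower. Around RGS4, 8 of 9 tested genes were higher and 1 lower, with a median log2 fold change of 0.53. Values ran from -0.28 to 3.19, the last that of RGS5. The 8 include RGS5 and AL592435.1, which share exonic bases. The coding neighbour on the left of RGS4, HSD17B7, an enzyme of steroid and cholesterol synthesis, had 0.24 (SE 0.06). Around RGS7, 2 of 10 were higher and 5 lower, with a median of -0.31 and a highest value of 0.36, far below the 5.32 of RGS7 itself. FH, the fumarase gene on its right, had 0.29 (SE 0.04). Around RGS16, 7 of 13 were higher and 1 lower, with a median of 0.53. Around RGS10, 14 of 15 were higher and none lower, with a median of 0.67 and a lowest value of 0.15, above the 0.06 of RGS10. The receptor kinase gene GRK5 on its left had 0.40 (SE 0.04) and TIAL1, an RNA-binding protein gene on its right, 0.32 (SE 0.03).

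For the members that were lower, flanking genes went both ways, beside 32.7% higher and 34.2% lower among all tested genes. Nothing is read from the flank counts. Around RGS2, 3 of 9 were higher and 2 lower, and its right neighbour UCHL5, a deubiquitinase gene, had -0.07 (SE 0.04) and did not pass, except without resistant replicate 1 (limma adjusted p = 0.0344). Around RGS3, 8 of 26 were higher and 9 lower, with ZNF618 on the right at 0.20 (SE 0.04). Around RGS12, 5 of 21 were higher and 14 lower, with a median of -0.19, and HTT, the huntingtin gene on its left, had -0.25 (SE 0.04). Around RGS14, 14 of 44 were higher and 15 lower, with LMAN2 at -0.60 (SE 0.04) and the coagulation factor gene F12 at -1.97 (SE 0.17) beside it. Around RGS19, 5 of 37 were higher and 16 lower. OPRL1, a Gi-coupled opioid-like receptor gene that lies 0.185 kb from RGS19, had a mean of 108 normalized counts in parental and 28.9 in resistant cells (-1.87, SE 0.21), and TCEA2, 0.834 kb away on the other side, had -0.01 (SE 0.04) and did not pass.

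**Figure D5:**
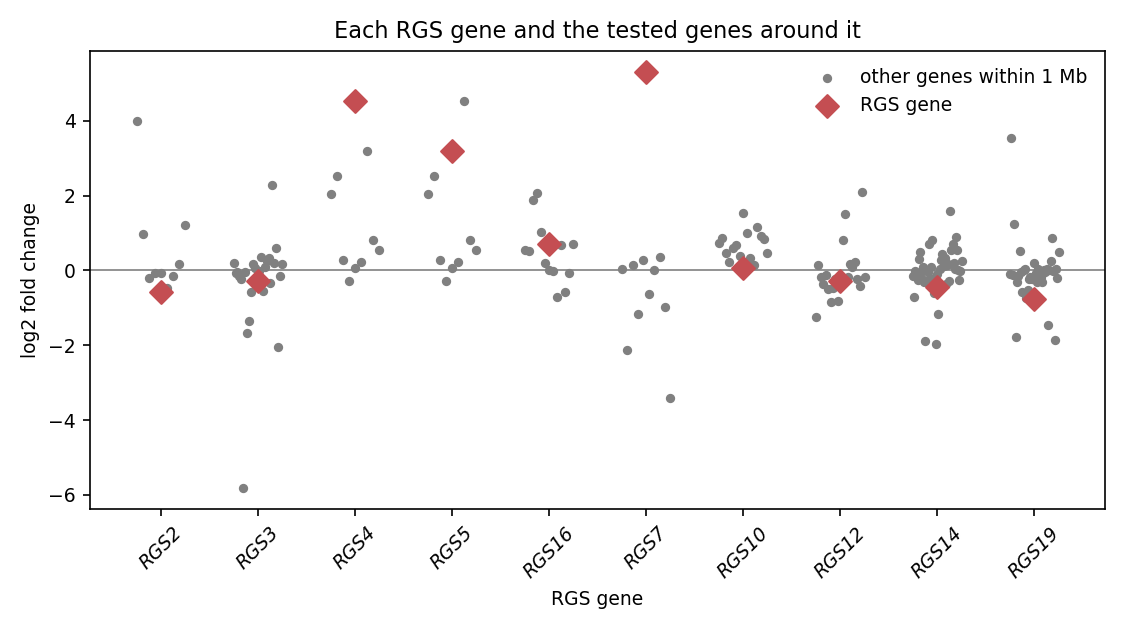
Log2 fold change of each of the 10 RGS genes (diamonds) and of the other tested genes within 1 Mb of it (grey points). RGS7 and RGS4 lie above every gene around them, and RGS10 lies below the 15 genes around it.

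The genes whose levels were most like those of 2 members were found by the Euclidean distance of log2(normalized count + 1) over the 4 libraries, which describes these libraries only. For RGS7 they were GPRIN3, which encodes a G protein regulated inducer of neurite outgrowth (distance 0.49), the antisense transcript ZIM2-AS1 (0.58) and the homeobox gene BARX2 (0.63). GPRIN3 had 19.3 and 15.9 normalized counts in parental and 595 and 568 in resistant cells. For RGS19 they were RTL8A, derived from a retrotransposon (0.06), the hydrolase gene NUDT19 (0.10) and CREM (0.10).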

How the data were processed

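RNA enriched with oligo(dT) beads, per the labels' protocols, was sequenced in 4 libraries, grouped and numbered by their titles, and each column was matched through the labels' descriptions. The submitters' processing notes name bcl2fastq 2.17, STAR 2.5.2b, featureCounts from Subread 1.5.2, DESeq2 and GRCh38, but no annotation or strand setting. The deposited signal columns are gene counts that the authors divided by 1 size factor per library: 100% of values in each library were whole multiples of 1 step (tolerance 0.01), so reads were recovered. The authors' deposited log2 fold changes served for comparison, and their deposited p-values were not used.

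Of 18375 genes, 18330 reached 10 in 2 or more libraries and were kept, and log2(value + 1) was fitted on group with limma 3.58.1 (R 4.3.3, eBayes with trend), with p-values adjusted by Benjamini-Hochberg across every gene kept and called under 0.05. The fold changes use that log scale, which understates those of low genes. Common dispersion (edgeR 4.0.16) was 0.000566. Alternatives, named with their effect in the closing section, included edgeR and DESeq2 1.42.0 on recovered reads. The procedure was tested on simulated counts. Replicates differed beyond sampling noise (chi-square per gene 1.61 in parental and 4.00 in resistant pairs). Intervals cover counting error only.

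The members and gene lists were chosen with earlier results of these data known. Named genes are the members, all other measured RGS family genes and RGS7 partners, up to 4 genes per list with the smallest adjusted p, CXCR4, the 3 nearest patterns of the members with the largest and smallest fold change, and the nearest tested coding gene on each side of a member (AL136454.1 and C9orf43 did not pass, and some neighbours are not reported here). Marker genes, AGTR1 and the cAMP response genes that rose were named after their values were seen. Symbols were matched as deposited, and promoters of all 10 members were matched in RefSeq by symbol.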

Additional observations from a re-analysis of the deposited data

How the results depend on the processing

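All 10 members kept the sign of their log2 fold change under each of 13 alternatives, and 9 were called without each library in turn and with the replicate block, 10 with quantile normalization, 7 with a dispersion of 0.01 and 6 with a change above 1.2-fold required. The values of RGS7 ranged from 4.75 to 5.40, those of RGS5 from 2.97 to 3.41, those of RGS4 from 4.46 to 4.56 and those of RGS10 from 0.05 to 0.13. Over all genes, 12271 were called (6001 higher, 6270 lower). With a change above 1.2-fold required these were 6794 (3380 and 3414), and with a dispersion of 0.01 in edgeR 7943 (3880 lower). Leaving out 1 library gave 10786 to 12192 called genes. With a change above 1.2-fold required, 5 G alpha genes, 8 effectors and 8 cAMP response genes were called in place of 9, 15 and 13, and with the dispersion of 0.01, 9 effectors and 8 cAMP response genes. Under both of these settings the calls of the neighbours FH, HSD17B7, TIAL1, ZNF618 and HTT were lost. The uncalled TCEA2 log2 fold change of -0.0059 became 0.042 with quantile normalization and ranged from -0.0275 to 0.016 when 1 library was left out. The HGFAC log2 fold change (0.83, the right neighbour of RGS12) was called, and the call was lost under 5 alternatives, among them leaving out parental replicate 1 (0.67) or resistant replicate 1 (0.58). The cause of these changes was not tested. Same-numbered libraries did not deviate together (correlation over genes of -0.03), so the labels' numbers were not taken to pair them, and the replicate block gave 12144 called genes. With 35 reads, the parental level of RGS7 has the largest counting error of the members, while the parental replicates of RGS5 had the largest spread relative to their mean.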
